A study of Bombyx mori with 4 samples.

Results

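BmPHO RNAi and BmSCM RNAi were set against each other in silkworm BmN4-SID1 cells, and 7054 of the 23229 gene probes on the array were measured in both. The members were chosen by a rule that used no ratio: gene probes whose spot passed its quality flag on both arrays, compared by the difference of the log2 ratios, BmPHO minus BmSCM. BmN4 cells descend from the ovary of the silkworm, and their SID1 line imports dsRNA, the double-stranded RNA that triggers RNAi, from the culture medium. Cells were kept with dsRNA against BmPHO, BmSCM, BmSCE or BmESC, or against EGFP (the control, a jellyfish protein that silkworm cells lack), and harvested on day 7. Each knockdown had 1 array of RNA pooled from 3 experiments, labelled with Cy5 and hybridized against Cy3-labelled EGFP RNAi RNA, with no array that exchanged the dyes. There was thus no spread between replicates, no difference could be tested, and a probe is called higher or lower in BmPHO RNAi where the difference passed 2-fold (1 on the log2 scale).

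Polycomb group proteins keep developmental genes silent through chromatin. PRC1 ubiquitinates histone H2A and compacts nucleosomes, PRC2 methylates histone H3, and Pho, the relative of mammalian YY1, is the subunit of PhoRC that binds DNA by its zinc fingers. Scm carries MBT repeats and a SAM domain, through which it joins PRC1 components and other repressors in the fly. BmPHO and BmSCM are the silkworm genes for these proteins, and the question of the comparison is which genes respond unequally to their loss.

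The primers that the study lists for RNAi of the 2 genes are shown because they mark the targeted transcripts, in lower case from 5′ to 3′, and no probe of the array was measured under the name of either gene.
BmPHO forward: atagcatgtccacacaaagg
BmPHO reverse: gcgttagtatgtgcgacttc
BmSCM forward: agttggcctatgtttttgct
BmSCM reverse: gctcttgtcaatctttgagg
The array could therefore not follow the loss of either target. The study assessed it by RT-PCR on RNA of the same cells and reported that both transcripts were clearly reduced. A probe matched to sex comb on midleg homolog 1 (sw13820) was too dim, with Cy5 intensities of 184 in BmPHO RNAi and 34 in BmSCM RNAi, and it failed its flag on both arrays.

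The knockdowns gave similar ratios to EGFP RNAi, though the study found that their cultures did not grow alike. It reported fewer and more compact cells after BmPHO RNAi, with the lower numbers clearest on day 7. It saw no significant growth change in the other knockdowns, and no effect of BmPHO RNAi on the cell cycle. Whether growth had a part in the differences below was not tested. Across the 7054 probes the log2 ratios of the BmPHO and BmSCM arrays correlated at 0.873, which is a description across genes on arrays that share a reference label, not a test. The difference had a median of 0.06 and an SD of 0.41, and 86.5% of probes lay within 1.5-fold and 97.9% within 2-fold. Past 2-fold, 68 probes (0.964%) were higher and 79 (1.12%) lower in BmPHO than in BmSCM RNAi, 147 (2.08%) in all, with extremes of 2.17 for an uncharacterised protein match (sw06036) and -2.71 for a 120-kDa protein match (sw12920). On the deposited ratios of the authors 65 were higher and 102 lower, and 40 of the 68 and 66 of the 79 passed 2-fold there in the same direction. Centring each array on its median gave 24 higher and 101 lower, and Cy5 against Cy5 gave 128 higher and 239 lower. Where all 4 intensities were at least 400, 34 of 5543 probes (0.613%) were higher and 63 (1.14%) lower.

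**Figure D1:**
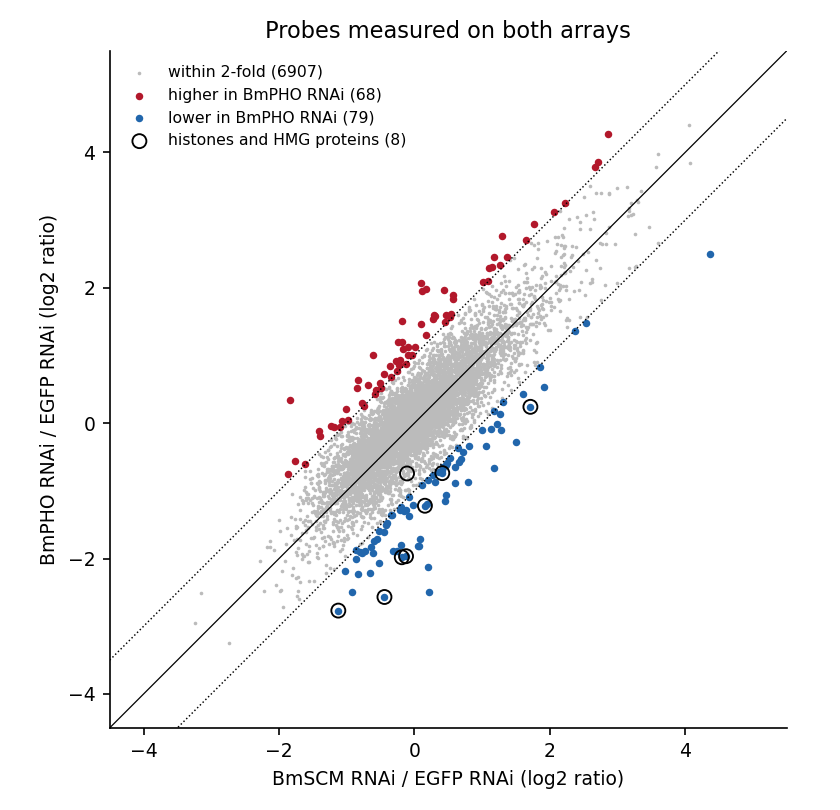
Log2 ratio to EGFP RNAi in BmPHO RNAi (vertical) and BmSCM RNAi (horizontal) for the 7054 probes measured on both arrays; dotted lines mark a 2-fold difference and circles the 8 histone and HMG probes. The 68 probes above the upper line were higher and the 79 below the lower line were lower in BmPHO RNAi, and 7 of the 8 circled probes lie below it.

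Measurement error was judged from spots of the same sequence and from the EGFP RNAi channel. The 5 silkworm control probes printed 49 times each had an SD of the difference of 0.08 to 0.11 over spots, which holds no spread between cultures or arrays. Their means were -0.62 for eIF4A (sw22934), -0.31 for ribosomal protein L19 (sw01783), -0.18 for ribosomal protein L27A (sw08699), 0.06 for a proteasome beta subunit (sw15061) and 0.16 for eIF3 subunit 5 (sw13956). The 8 yeast spike-in controls, RNAs added from another organism, were not alike on these arrays. Their mean differences of the log2 ratio ran from 0.11 to 1.01, all higher on the BmPHO array. In Cy3 alone their means differed by -1.05 to -0.25, all lower on the BmPHO array, and in Cy5 alone by -0.29 to 0.25. Cy3 on both arrays held RNA of EGFP RNAi cells, and Cy3 of the BmPHO array against Cy3 of the BmSCM array passed 2-fold upward for 61 probes (0.865%) and downward for 83 (1.18%), with an SD of 0.35. These counts are near the 68 and 79 called on ratios, but a single channel is another measure than a ratio. In the single Cy5 channel, which held the knockdown RNA, 128 probes were higher and 239 lower, with an SD of 0.50. The Cy3 and Cy5 differences of a probe correlated at 0.653 across probes, and of the called probes 3 of the 68 higher and 2 of the 79 lower differed past 2-fold in Cy3. In Cy5 alone 35 of the 68 and 55 of the 79 passed 2-fold the same way.

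**Figure D2:**
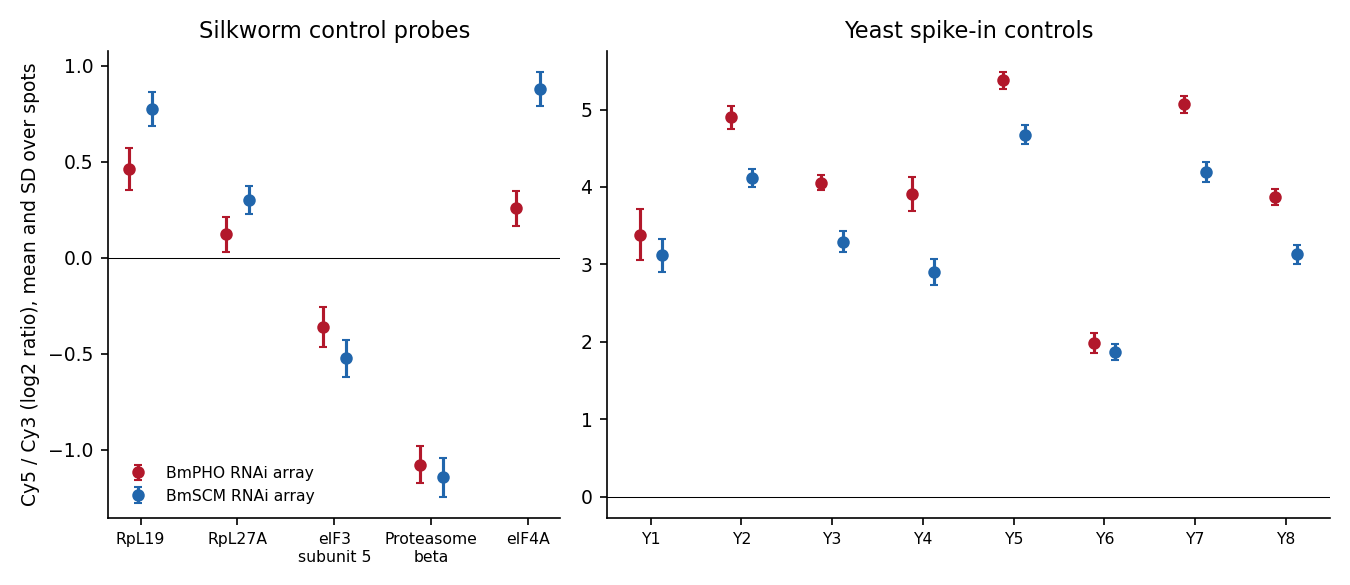
Mean and SD over spots of the log2 ratio of Cy5 to Cy3 on the BmPHO array (left point of each pair) and the BmSCM array, for 5 silkworm control probes (49 spots each, left panel) and 8 yeast spike-in controls (48 spots each, right panel). The mean of eIF4A was 0.62 lower on the BmPHO array, with a spot SD of the difference of 0.10 that covers repeat spots within an array only, and every spike-in had the higher mean there.

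Brightness moved with the direction of the calls. Among the 1764 dimmest probes 29 were higher and 11 lower in BmPHO RNAi, with a median difference of 0.14, and among the 1764 brightest 2 were higher and 26 lower, with a median of -0.04. The 706 brightest probes had 0 higher and 14 lower and a median of -0.11. Whether brightness had a part in the groups below was not tested.

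The called probes were sorted by a 2-fold cut against EGFP RNAi on each array. They had been chosen for a 2-fold gap between the arrays, which favours passing that cut on 1 array only. The split is therefore a description, and a probe counted for 1 array alone can lie just inside the cut on the other. Of the 68 higher probes, 24 were up past 2-fold against EGFP RNAi in BmPHO RNAi alone, 11 were down in BmSCM RNAi alone, 15 were up in both and further in BmPHO RNAi, and 18 were within 2-fold on each array. Of the 79 lower probes, 41 were down in BmPHO RNAi alone, 14 were up in BmSCM RNAi alone, 3 were up in both, 2 down in both and 19 within 2-fold on each. Against EGFP RNAi, 828 of the 7054 probes (11.7%) were up and 544 (7.71%) down in BmPHO RNAi, and 682 (9.67%) up and 509 (7.22%) down in BmSCM RNAi. Among the lower probes measured on all 4 arrays, 57 of 78 had their BmSCM value nearer than their BmPHO value to the mean of BmSCE and BmESC RNAi, while of the higher probes 29 of 57 did. The same share over all 6491 probes measured on all 4 arrays was not computed. Whether the called probes stood apart mainly on 1 array was therefore not tested.

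Histones and high mobility group (HMG) proteins were the group that differed most. Histones form the nucleosome, and HMG proteins bend or bind DNA and nucleosomes. Of the 8 measured probes 7 were lower in BmPHO than in BmSCM RNAi, against 1.12% of all probes, and 0 were higher, with a median difference of -1.56 against 0.06 over all probes. The median log2 ratio to EGFP RNAi of the list was -1.59 in BmPHO and -0.12 in BmSCM RNAi, and -0.33 in BmSCE and -0.35 in BmESC RNAi. Of these 8 probes, 6 were among the 706 brightest, where they had a median of -1.72 against -0.11 for all 706. A mobility group protein 1B (sw06244) and a nucleosomal binding protein 1 match (sw11002) were added to the list after their values were seen. Without them 5 of 6 probes were lower and 0 higher, the median difference was -1.42, and the median log2 ratio was -0.98 in BmPHO and 0.02 in BmSCM RNAi.

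The histone variant H2A.V (sw08118), which marks promoters and sites of DNA damage, read 3659 in Cy5 and 22276 in Cy3 on the BmPHO array, and 11872 in Cy5 and 16592 in Cy3 on the BmSCM array. Its log2 ratio was -2.57 in BmPHO, -0.44 in BmSCM, -0.27 in BmSCE and -0.42 in BmESC RNAi, so the BmPHO array stood alone, and the difference of -2.13 was 4.36-fold. Histone H3.3A (sw05668), the H3 variant laid down outside replication, read 14540 in Cy5 and 35571 in Cy3 on the BmPHO array, and 28097 and 27485 on the BmSCM array. Its ratio was -1.22 in BmPHO and 0.16 in BmSCM RNAi. A histone H2A-like probe (sw10499) gave -0.74 in BmPHO and 0.41 in BmSCM RNAi. Histone H2B (sw18054) was the one member above EGFP RNAi on every array, at 0.24 in BmPHO, 1.71 in BmSCM, 1.79 in BmSCE and 2.44 in BmESC RNAi. Its low BmPHO value therefore stood beside values more than 2-fold above EGFP RNAi in the other 3 knockdowns. Histone genes have near-identical copies, and which of them a probe reads was not tested.

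Among the HMG proteins, Hmga (sw14960), an AT-hook protein that binds AT-rich DNA, read 4052 in Cy5 and 28481 in Cy3 on the BmPHO array, and 10831 and 24598 on the BmSCM array. It was below EGFP RNAi in both, at -2.77 in BmPHO and -1.12 in BmSCM RNAi. The 1B mobility group protein (sw06244) stood at -1.97 in BmPHO and -0.12 in BmSCM RNAi, and nucleosomal binding protein 1 (sw11002) gave -1.98 and -0.19. A second probe named mobility group protein 1B (sw00052) differed by -0.63, within 2-fold, at -0.74 in BmPHO and -0.11 in BmSCM RNAi. Nucleosome assembly protein, a histone chaperone, had 2 probes: sw21923 differed by -1.08 and sw04271 by -0.89, the same direction from separate spots, and on the ratios of the authors by -0.86 and -0.71, within 2-fold. This pair was picked after its values were seen.

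**Figure D3:**
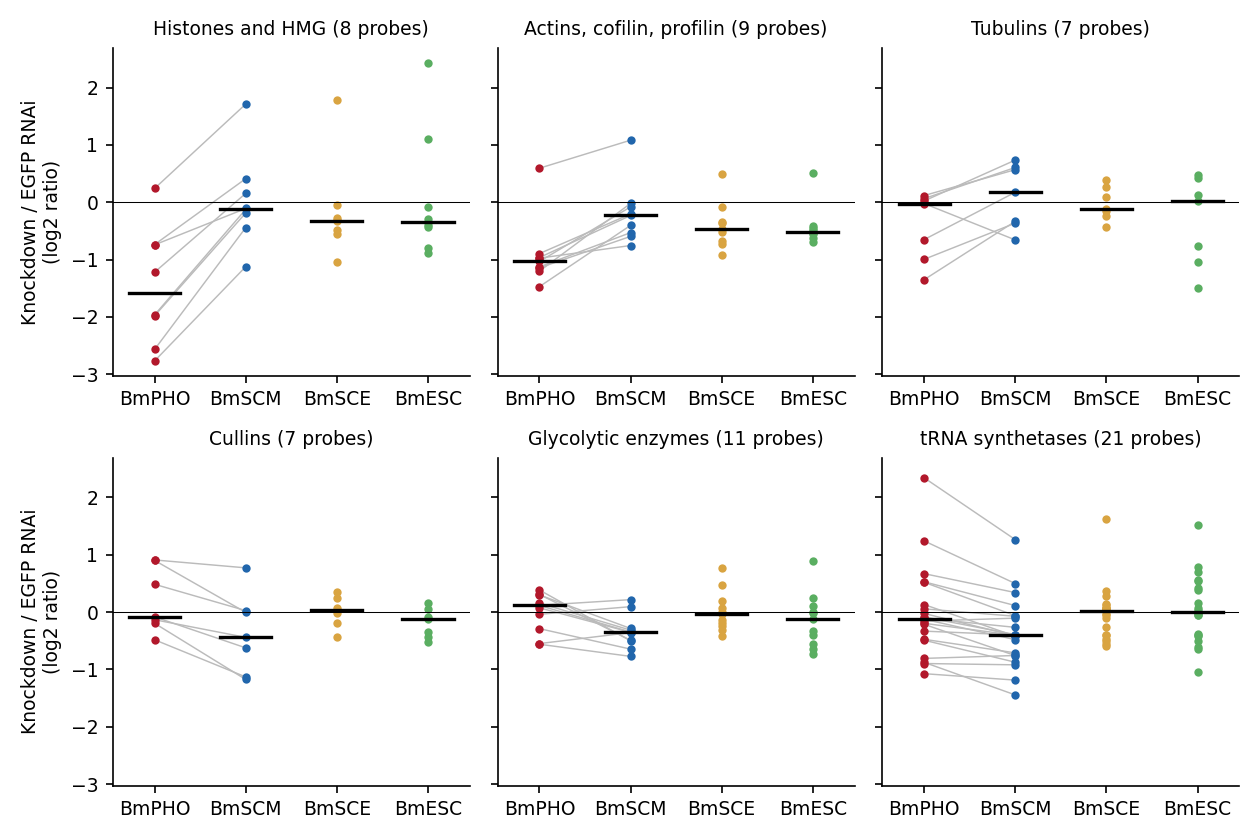
Log2 ratio to EGFP RNAi of each measured probe in BmPHO, BmSCM, BmSCE and BmESC RNAi for 6 groups; grey lines join BmPHO and BmSCM values of a probe and black bars are medians. The histone and HMG median was -1.59 in BmPHO and -0.12 in BmSCM RNAi, while the cullin, glycolytic and tRNA synthetase probes lie mostly higher in BmPHO RNAi.

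The lowest difference of all belonged to a match to a 120-kDa protein (sw12920), which read 809 in Cy5 and 4366 in Cy3 on the BmPHO array, and 4495 and 3528 on the BmSCM array. It gave -2.50 in BmPHO, 0.21 in BmSCM, 0.10 in BmSCE and 0.55 in BmESC RNAi. A match to monocarboxylate transporter 2 (sw03799), a carrier of lactate and pyruvate, gave -1.82 in BmPHO and 0.06 in BmSCM RNAi. The ratios of a match to a tetraspanin similar to uroplakin 1 (sw06554), a membrane protein, were -1.89 in BmPHO and -0.31 in BmSCM RNAi, those of selenium binding protein 1 (sw15330) -1.89 and -0.25, and those of a POP1D match (sw22212) -2.07 and -0.52. In all 5, BmPHO RNAi was below the other 3 knockdowns.

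In other low differences the BmSCM value was above EGFP RNAi. An E-1 enzyme match (sw05288) stood at -0.28 in BmPHO and 1.50 in BmSCM RNAi, and -0.43 and -0.87 in BmSCE and BmESC RNAi, so here the BmSCM array stood alone. Transcriptional adaptor 3 (sw15020), a subunit of histone acetyltransferase complexes, gave -0.34 in BmPHO and 1.05 in BmSCM RNAi. It stood at 0.57 in BmSCE and 1.30 in BmESC RNAi. A Y-box protein (sw03949), which binds mRNA and DNA, was among the brightest probes, with 26065 in Cy5 and 51073 in Cy3 on the BmPHO array, and 42812 and 31588 on the BmSCM array. It gave -0.89 in BmPHO and 0.59 in BmSCM RNAi, on opposite sides of EGFP RNAi, and 0.18 in BmSCE and 0.60 in BmESC RNAi. For the adaptor and the Y-box protein, BmPHO RNAi alone was below EGFP RNAi. Also among the 15 lowest bright named probes were a match to a mosquito protein known only by its ID (sw05088, -1.83) and a CG2944 match (sw10917, -1.38). All other probes among those 15 have been described.

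Probes higher in BmPHO RNAi belonged to many roles and were dimmer. Only 14 bright named probes passed 2-fold both here and on the ratios of the authors. A CG3790 match (sw12536) led them, with 2078 in Cy5 and 671 in Cy3 on the BmPHO array, and 783 and 605 on the BmSCM array, so that it stood at 1.51 in BmPHO and -0.18 in BmSCM RNAi. A match to hatching enzyme 1 (sw11170), a protease, gave 1.01 in BmPHO, -0.61 in BmSCM, 0.74 in BmSCE and 0.75 in BmESC RNAi. The choline transporter-like match (sw10856) stood at 1.58 in BmPHO, 0.31 in BmSCM, 1.87 in BmSCE and -0.78 in BmESC RNAi. Conventional protein kinase C (sw11805), a lipid- and calcium-activated signalling kinase, gave 0.56, -0.69, 0.72 and 1.55 in the same order. For this kinase and hatching enzyme 1, BmSCM RNAi alone was below EGFP RNAi.

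For other bright named probes the BmSCM array stood apart too. Nucleoside diphosphate kinase 6 (sw13390), which makes nucleoside triphosphates, gave -0.19 in BmPHO, -1.39 in BmSCM, 0.01 in BmSCE and 0.12 in BmESC RNAi. A U4/U6 splicing factor (sw18163) gave -0.04, -1.23, 0.05 and 0.37 in the same order, and a WD40 protein (sw10352) 0.04, -1.07, 0.16 and -0.29. In each of these 3 the BmPHO value was near that of EGFP RNAi. Further members were matches to phosphoglucomutase 2 (sw17679, difference 1.17), which interconverts glucose phosphates, glucose-1-phosphatase (sw06503, 1.18), WD-repeat protein 3 (sw08201, 1.10), a PARN-like ribonuclease (sw05722, 1.03), LP05301p (sw12946, 1.26) and CG5543 (sw10054, 1.03).

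**Figure D4:**
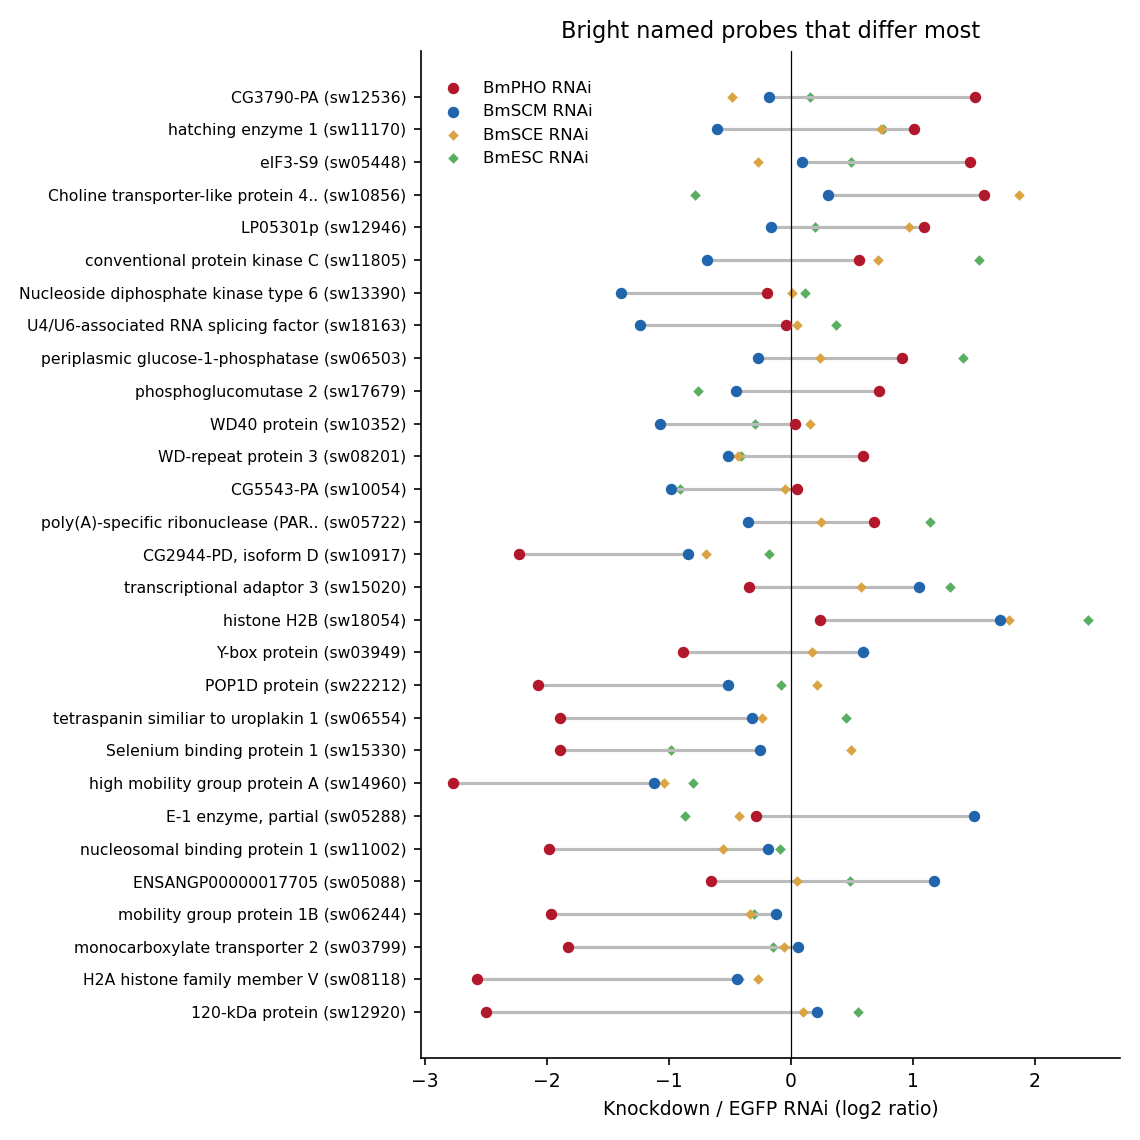
Log2 ratio to EGFP RNAi on the 4 arrays for the 14 bright named probes highest and the 15 lowest in BmPHO relative to BmSCM RNAi, ordered by the difference, with a grey line between the BmPHO and BmSCM values. The lowest BmPHO values are those of Hmga (-2.77), H2A.V (-2.57) and the 120-kDa match (-2.50), and the BmSCM value is the lowest of the 4 for nucleoside diphosphate kinase 6 (-1.39).

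Genes with several probes gave a check on the calls that used separate spots. The 84 silkworm genes with at least 2 measured probes had a median range of 0.27 between probes of a gene, and 5 of them held a called probe. Casein kinase I alpha, a kinase of the Wnt and Hedgehog pathways, was the one with every probe called: sw17929 stood at 2.08 in BmPHO and 1.02 in BmSCM RNAi (difference 1.07), and sw10793 at 1.49 and 0.45 (1.04). On the ratios of the authors these differences were 0.93 and 0.71, so both calls were lost there. A casein kinase 1 alpha 1 match (sw00366) gave -0.12. For the 25 kDa proteasome subunit the differences were -1.15 (sw08994) and -0.84 (sw08993), close to each other. For eIF3-S9, a subunit of translation initiation factor 3, they were 1.38 (sw05448, at 1.47 in BmPHO and 0.09 in BmSCM RNAi) and 0.36 (sw11924), and for a 3-hydroxyacyl-CoA dehydrogenase of fatty acid oxidation 1.37 (sw10203) and 0.25 (sw19688). The probes of these last 2 genes disagreed about the size, so their calls rest on 1 spot each.

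The calls in the cytoskeleton list were all lower in BmPHO RNAi. Of 129 measured probes for cytoskeleton, motors and muscle 0 were higher and 4 lower, against 0.964% and 1.12% of all probes. The median was -0.10 against 0.06 over all probes. The 4 were cofilin, profilin, a beta-4 tubulin match and a calcium-dependent secretion activator match (sw18779, -1.17), which is named for secretion. Cofilin (sw17482), which severs actin filaments, stood at -1.20 in BmPHO and -0.02 in BmSCM RNAi, and profilin (sw12681), which feeds actin monomers to growing filaments, gave -1.47 and -0.40. Profilin differed by -1.07 here and by -0.57 on the ratios of the authors, and cofilin by -1.18 and -0.74, so neither passed 2-fold there. All 9 probes for actins, cofilin and profilin were below 0 in the difference, from -1.18 to -0.22 with a median of -0.69, and 5 among the 706 brightest had a median of -0.73 against -0.11 for all 706. Of 7 alpha- and beta-tubulin probes 6 were below 0, with a median of -0.63, and 3 among the 706 brightest had a median of -0.83. The brightest of them, alpha-tubulin (sw22939), stood at 0.02 in BmPHO and 0.74 in BmSCM RNAi, and beta-tubulin Tub2 (sw17349) -0.65 and 0.17. A match to beta-4 tubulin (sw09774) passed 2-fold at -1.02, but in Cy5 alone it was 0.34 higher on the BmPHO array, and its Cy3 signal of EGFP RNAi differed by 1.31. These small families, like the glycolytic enzymes, cullins and A and B cyclins below, were picked after their values were seen.

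Of 91 cytosolic ribosomal protein probes 0 passed 2-fold in either direction, against 2.08% of all probes. Their median difference was -0.12, and 75 of the 91 lay below the median of all probes. That direction was not stable: the median was 0.01 on the ratios of the authors and 0.05 with each array centred on its median, and 75 of the 91 were among the 706 brightest probes. The tRNA synthetases, which load amino acids on tRNA, lay on the other side. Their median was 0.33, and 18 of 21 lay above the median of all probes. Past 2-fold, 1 was higher and 0 lower, against 0.964% and 1.12% of all probes. Relative to all probes the list stayed between 0.21 and 0.35 under the settings tried on probes that passed their flags. Its median log2 ratio was -0.12 in BmPHO, -0.41 in BmSCM, 0.02 in BmSCE and 0.01 in BmESC RNAi. The list median was thus below EGFP RNAi in BmPHO RNAi and lowest in BmSCM RNAi. Aspartyl-tRNA synthetase (sw20349) stood at 1.24 in BmPHO and 0.50 in BmSCM RNAi, and methionine-tRNA synthetase (sw06825), with 14861 in Cy5 on the BmPHO array and 11695 on the BmSCM array, -0.12 and -0.48. The called member, an isoleucine-tRNA synthetase match (sw13625), was dim, with Cy3 at 111 on the BmPHO array and 200 on the BmSCM array, and in Cy5 alone it differed by 0.03. Translation factors had a median of 0.13 over 50 probes, with 1 higher (eIF3-S9) and 0 lower, against 0.964% and 1.12% of all probes.

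Glycolytic enzymes lay mostly above 0 in the difference. Of 11 glycolytic probes 8 were above 0, with a median of 0.43. None of the 11 passed 2-fold, against 2.08% of all probes. Glucose-6-phosphate isomerase (sw21062) gave 0.39 in BmPHO and -0.50 in BmSCM RNAi, phosphoglycerate kinase (sw09931) 0.31 and -0.49, and enolase (sw19274) 0.12 and -0.35. GAPDH (sw03207), the loading control of the study, differed by -0.10. The wider carbohydrate list had a median of 0.10, with 1 of 80 probes higher and 0 lower, against 0.964% and 1.12% of all probes. Lipid metabolism had 3 of 64 higher and 0 lower, against 0.964% and 1.12% of all probes, and a median of 0.06. An AMP-binding enzyme (sw12880), which activates fatty acids, gave 1.54 in BmPHO and 0.28 in BmSCM RNAi, but its Cy5 was 4303 on the BmPHO array and 4236 on the BmSCM array while Cy3 of EGFP RNAi was 1446 and 3150. The arrays were thus alike in Cy5 and differed in the EGFP RNAi channel. Mevalonate kinase (sw07769), of sterol and isoprenoid synthesis, differed by 1.09 and was dim in Cy3 on both arrays.

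The protein turnover lists had few calls. The proteasome had 0 of 30 probes higher and 1 lower, against 0.964% and 1.12% of all probes, and a median of 0.11. Ubiquitin conjugation and removal had 1 of 92 higher and 1 lower, near those shares, and a median of 0.16. The higher probe, a match to E1C (sw06595), the enzyme that activates NEDD8, stood at -0.05 in BmPHO and -1.10 in BmSCM RNAi, and the lower one, an E2 D2 conjugating enzyme match (sw03906), gave -1.24 and -0.19. All 7 cullin probes, the scaffolds of ligases that NEDD8 modifies, were above 0, from 0.14 to 0.98 with a median of 0.54. None of the 7 passed 2-fold, against 2.08% of all probes. A cullin 1 match (sw00609) gave 0.90 in BmPHO and -0.01 in BmSCM RNAi. Heat shock proteins and other chaperones had 1 of 87 higher and 0 lower, against the same shares of all probes, and a median of 0.15. Their called member, an Hsc70-4 probe (sw22917), stood at -0.06 in BmPHO and -1.19 in BmSCM RNAi, and 0.83 as a difference on the ratios of the authors.

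**Figure D5:**
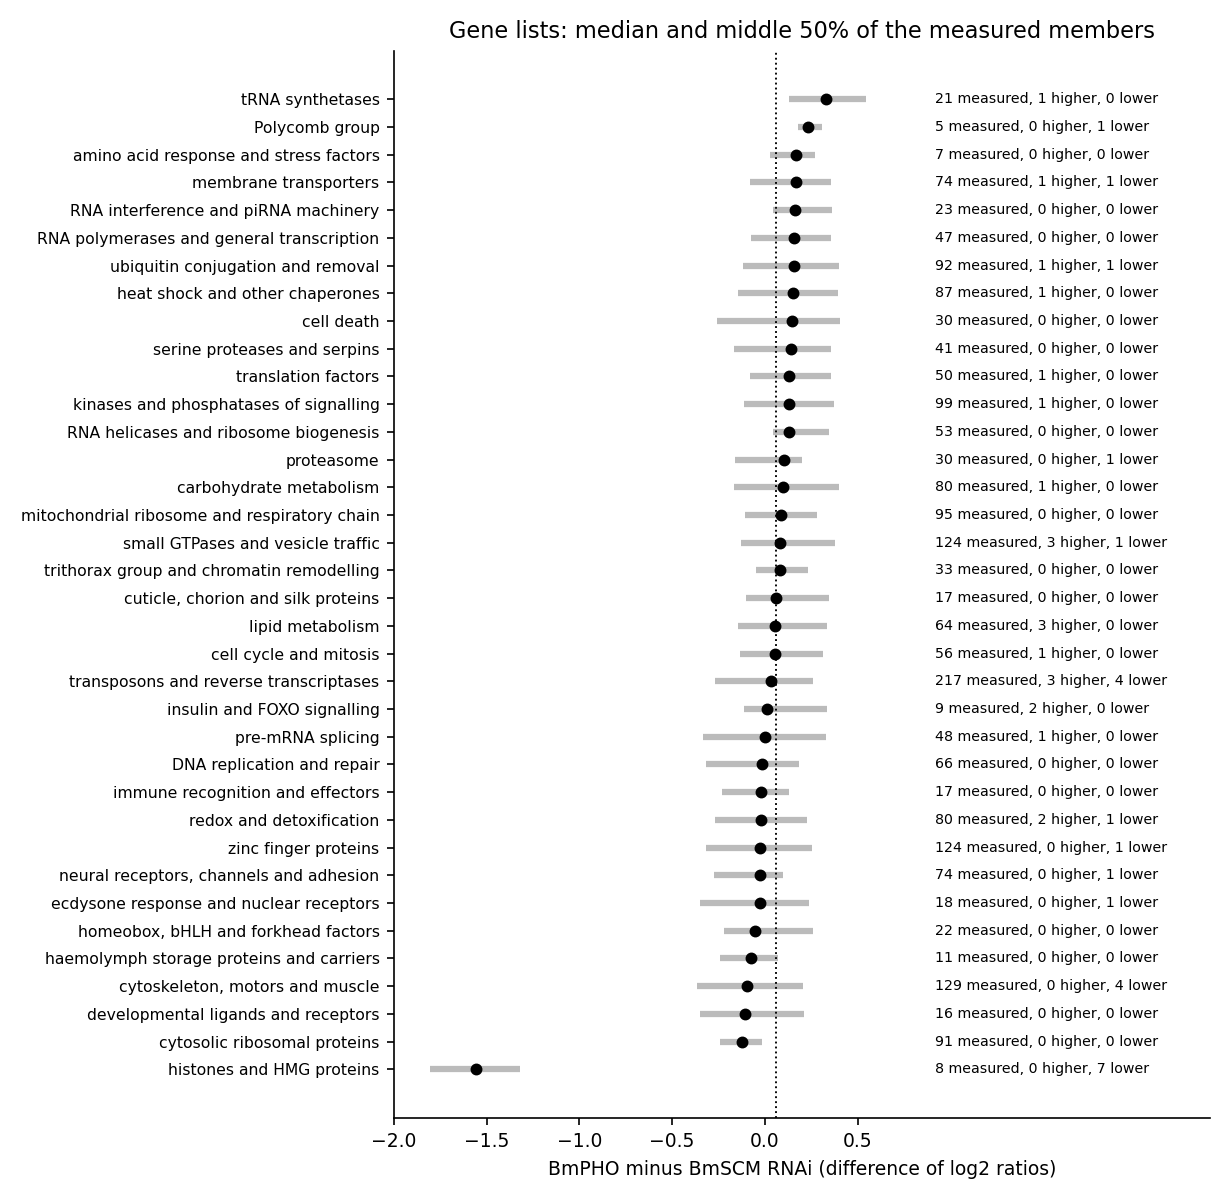
Median (point) and middle 50% (bar) of the difference, BmPHO minus BmSCM RNAi, for lists with at least 5 measured probes, cell type markers left out, with the number measured and the number past 2-fold in each direction; the dotted line is the median of all probes, 0.06. Histones and HMG proteins stand at -1.56, tRNA synthetases at 0.33, and the other lists drawn between -0.12 and 0.23.

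Cell cycle and mitosis genes did not move as a block. Their median was 0.05 over 56 probes, with 1 higher and 0 lower, against 0.964% and 1.12% of all probes. The called one, a match to cyclin-dependent kinase 5 (sw14428), stood at 0.77 in BmPHO and -0.26 in BmSCM RNAi, was dim, and differed by 0.76 on the ratios of the authors. Cyclin A (sw12379, -0.46), cyclin A1 (sw12378, -0.47) and a cyclin B homolog (sw04030, -0.42) each stayed within 2-fold, while cyclin J (sw14443), a gene that the study singled out, gave 1.49 in BmPHO and 1.08 in BmSCM RNAi, a difference of 0.41. CDC25 was not analysed here. DNA replication and repair had 0 of 66 probes past 2-fold, against 2.08% of all probes, and a median of -0.02. For cell death these were 0 of 30 and 0.15, and lists of this size hold few calls at that share. In the last list autophagy protein 5 had differences of 0.90 (sw07083) and 0.72 (sw15293) from separate probes.

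Among the Polycomb group itself 5 of 14 probes were measured. Of these 0 were higher and 1 was lower, against 0.964% and 1.12% of all probes. Polycomblike 2 (sw16438), which helps PRC2 to bind chromatin, was the one called, with 539 in Cy5 and 593 in Cy3 on the BmPHO array, and 1501 and 622 on the BmSCM array. It gave -0.34 in BmPHO, 0.80 in BmSCM, -0.04 in BmSCE and -0.23 in BmESC RNAi, so BmSCM RNAi alone was above EGFP RNAi. Extra sex combs (sw12637), the gene targeted by the BmESC dsRNA, differed by 0.36. The polyhomeotic probes (sw17606 and sw02381) differed by 0.23 and 0.18 and enhancer of polycomb (sw07595) by 0.31. Trithorax group and chromatin remodelling genes had 0 of 33 past 2-fold, against 2.08% of all probes, and a median of 0.08.

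The RNA interference and piRNA list had 0 of 23 probes past 2-fold, against 2.08% of all probes, and a median of 0.16. Argonaute 2 (sw20403), the slicer of the siRNA pathway, came nearest at 0.98, with 0.88 in BmPHO and -0.10 in BmSCM RNAi, followed by argonaute 1 (sw09466) at 0.77. Aubergine (sw10899), a piRNA-binding protein of the germ line, differed by -0.87. Transposons and reverse transcriptases had 3 of 217 probes higher and 4 lower, near the 0.964% and 1.12% of all probes, and a median of 0.03. A polyprotein match (sw19898) gave 1.97 in BmPHO and 0.44 in BmSCM RNAi, a match to the Pol polyprotein of the opus transposon (sw19004) 2.95 and 1.76, a non-LTR retrotransposon match (sw16523) -0.87 and 0.79, and a reverse transcriptase family match (sw19465) 0.54 and 1.92. These elements are present in many copies, and a probe can read several of them.

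Of signalling and hormone genes, the insulin list had 2 of 9 probes higher and 0 lower, against 0.964% and 1.12% of all probes. Both carry the name of insulin-related peptide binding protein: sw06810 stood at 4.28 in BmPHO and 2.86 in BmSCM RNAi, and sw08270 gave 1.89 and 0.56. The difference of sw08270 was 1.32 here and 0.83 on the ratios of the authors, within 2-fold there. The first was picked by the study for RT-PCR, and its Cy3 was only 174 on the BmPHO array and 118 on the BmSCM array. FOXO (sw09818), the factor held back by insulin, differed by -0.03. In the ecdysone and nuclear receptor list 0 of 18 were higher and 1 was lower, against 0.964% and 1.12% of all probes. The lower one was an angiotensin-converting enzyme-related protein named for its induction by ecdysteroid (sw14172). It stood at -1.15 in BmPHO and 0.45 in BmSCM RNAi, with Cy5 of 248 and 799. E75 (sw11067) differed by 0.50 and the ecdysone receptor (sw18055) by 0.24.

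Zinc finger proteins had 0 of 124 probes higher and 1 lower, and neural receptors 0 of 74 higher and 1 lower, against 0.964% and 1.12% of all probes. In the redox list 2 of 80 were higher and 1 lower, against the same shares. Cytochrome b561 (sw11471), a membrane electron carrier, gave 1.96 in BmPHO and 0.11 in BmSCM RNAi with Cy3 at 332 on the BmPHO array and 338 on the BmSCM array, and a 3-oxo-5-beta-steroid dehydrogenase match (sw07418) gave -1.81 and 0.06. The called zinc finger protein (sw18675) gave -1.80 in BmPHO and -0.19 in BmSCM RNAi. In vesicle traffic 3 of 124 probes were higher and 1 lower, against 0.964% and 1.12% of all probes: AP-3 delta (sw14406, 1.23), alpha-COP (sw03125, 1.02) and Rab14 (sw16237, 1.00) were higher and an IQGAP1 match (sw11962, -1.16), a scaffold of the actin cortex, lower. On the ratios of the authors the 3 higher ones were at 0.87, 0.65 and 0.94, within 2-fold, and AP-3 delta was at 0.56 in Cy5 alone. A secretion activator match (sw18779), counted above in the cytoskeleton list, differed by -1.17. The called probes of the splicing, kinase and transporter lists have been given above.

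The 10 genes that the study picked for RT-PCR had been chosen on these arrays for a rise in every knockdown, so their direction against EGFP RNAi is no independent result. Between BmPHO and BmSCM RNAi 3 were higher past 2-fold and 0 lower, against 0.964% and 1.12% of all probes: insulin-related peptide binding protein (1.41, sw06810), isovaleryl-CoA dehydrogenase (sw18275, 1.18) and cytochrome b5 (sw09668, 1.11). PEPCK (sw19873), of gluconeogenesis, lay just inside 2-fold at 0.99, with 34257 in Cy5 and 3758 in Cy3 on the BmPHO array, and 18786 and 3891 on the BmSCM array. E75 (sw11067) was at 0.50, a sugar transporter (sw00332) at 0.28, a rhomboid (sw14054) at 0.22, exonuclease GOR (sw06274) at 0.14 and UDP-galactose 4-epimerase (sw12918) at 0.08. CG10200 (sw13074) went the other way at -0.94. On the ratios of the authors CG10200 was at -1.75 and PEPCK at 1.28, both past 2-fold, and isovaleryl-CoA dehydrogenase at 0.96, within it.

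Marker genes of cell types were mostly not measured. None of their lists had a probe past 2-fold, against 2.08% of all probes, and each held 9 measured probes or fewer. Of ovary and germ line markers 7 of 31 were measured, among them piwi (sw00065), aubergine and 4 chorion proteins, and their log2 ratios ran from -1.07 to 1.07 in BmPHO RNAi and from -0.63 to 1.06 in BmSCM RNAi. Haemocyte markers (7 of 32) ran from -0.42 to 1.22 in BmPHO and from -1.08 to 0.51 in BmSCM RNAi, fat body markers (6 of 35) from -1.24 to 1.73 and from -1.02 to 2.02, muscle markers (9 of 26) from -1.14 to 2.28 and from -1.25 to 1.53, and nerve markers (5 of 24) from -1.30 to 0.87 and from -0.94 to 0.88. For the silk gland 1 of 9 was measured, fibroin P25 (sw12944), at 1.19 in BmPHO and 0.53 in BmSCM RNAi. In a pool of cells, fewer cells of a type and less RNA per cell cannot be told apart.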

How the data were processed

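Each array file held a Cy5 and a Cy3 intensity per spot, deposited by the authors with background already subtracted, and a ratio normalized by the authors by a method which the sources used here do not name. The deposited series table is the log2 of that ratio. Intensities under 100 were set to 100, and log2 ratios were normalized within each array by loess against mean brightness, fitted to gene probes (span 0.3, 4 iterations; limma 3.58.1, R 4.3.3). Differences, counts and medians used Python 3.11.15, numpy 2.4.6 and pandas 2.3.3. A probe was measured where its flag was E, M or S on both arrays, and bright where all 4 intensities were at least 400. The procedure was tested on simulated data. Changes were simulated only in probes with Cy3 of at least 400, and the noise was a chosen setting. That test therefore does not show the error rate of the calls on these arrays. Intensities hold no counts, and 1 array per knockdown limits the precision.

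Lists were found by words in the annotation of the array, which names 5236 of the 7054 probes, mostly through proteins of other species, called matches. Of 765 silkworm gene numbers 745 were found in the RefSeq gene table. Named genes are the 15 highest and 15 lowest bright named probes also past 2-fold on the ratios of the authors (14 were found among the higher), up to 4 called members per list, genes the study names, and probes past 2-fold in opposite directions (0 found). The members, lists and rules were chosen with earlier results of these data known. Alternatives covered the normalization, floor, filter, Cy5 alone, array width and fold threshold. Probe sequences and genome positions were not used here.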

Additional observations from a re-analysis of the deposited data

Results flagged for a closer look

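Among the bright named probes, 3 stood on opposite sides of EGFP RNAi by more than 1.5-fold in each knockdown, and these differences were not tested, since each knockdown has 1 array. Hatching enzyme 1 (sw11170) gave 1.01 in BmPHO and -0.61 in BmSCM RNAi, a difference of 1.62, and 0.74 and 0.75 in BmSCE and BmESC RNAi. The Y-box protein (sw03949) gave -0.89 in BmPHO and 0.59 in BmSCM RNAi, a difference of -1.48, with a difference of 0.59 in Cy3 of EGFP RNAi. The mosquito match (sw05088) gave -0.66 in BmPHO and 1.17 in BmSCM RNAi, a difference of -1.83, with 0.01 in Cy3.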

How the results depend on the processing

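No paired analysis was possible because each knockdown has 1 array and the labels give no replicate numbers. With 1 array each, depth limits dim probes most: 34 of the 68 higher and 63 of the 79 lower probes had all intensities at least 400. The main counts were 68 higher and 79 lower in BmPHO RNAi. They became 24 and 101 with median centring (19.2% of the called probes higher, against 46.3%), 128 and 239 with Cy5 against Cy5 (34.9%), 34 and 63 with all intensities at least 400 (35.1%), 158 and 143 over all gene probes with flags ignored, 543 and 407 past 1.5-fold and 6 and 16 past 3-fold. Of the 59 called named probes, 48 stayed past 2-fold on the ratios of the authors, 36 with median centring and 39 in Cy5 alone, and 1 changed sign, the beta-4 tubulin match (sw09774) at 0.34 in Cy5 alone.

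List medians that moved, relative to all probes, by more than the spot SD of 0.09 were as follows. In Cy5 alone they were 0.034 for the Polycomb group, -1.35 for histones and HMG proteins, -0.13 for transposons, -0.19 for ecdysone response, 0.44 for insulin signalling, 0.25 for amino acid response, 0.022 for ribosomal proteins, 0.15 for the mitochondrial list, 0.023 for homeobox factors and -0.17 for neural receptors, with -0.58 for ovary, 0.0047 for haemocyte, 0.10 for muscle and -0.19 for nerve markers. With median centring they were -1.47 for histones, 0.15 for translation factors, 0.054 for ribosomal proteins, 0.14 for the mitochondrial list, 0.16 for RNA helicases, -0.10 for developmental ligands, -0.075 for serine proteases, -0.15 for cuticle proteins and -0.054 and -0.29 for haemocyte and muscle markers. On the ratios of the authors they were 0.053 for the Polycomb group, 0.015 for ribosomal proteins, 0.15 for the mitochondrial list and -0.13 for nerve markers. With all intensities at least 400 they were 0.074 for ecdysone response, 0.25 for cell death, -0.0072 for serine proteases, -0.094 for cuticle proteins, and 0.084, 0.42, -0.52 and -0.13 for ovary, haemocyte, muscle and nerve markers. Loess within print blocks gave 0.11 for insulin signalling, 0.27 for amino acid response, -0.034 for ribosomal proteins, 0.13 for ovary and -0.052 for fat body markers, and a floor of 200 gave 0.23 for insulin signalling, 0.018 for serine proteases and 0.058 for haemocyte markers. With flags ignored, histones were at -1.26, and homeobox factors, developmental ligands, cytoskeleton, transporters, haemolymph proteins and haemocyte, fat body and muscle markers at 0.0. Without the 2 members added after their values were seen, an alternative chosen after seeing the data, histones were at -1.42. The cause of the other moves was not tested. The histone list had the lowest median of all lists under every setting run, between -1.62 and -1.37 relative to all probes where flags were applied.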

Other observations

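Annotation terms carried by the array gave a further description that used no list of words. Terms can share probes with each other and with the groups above, such as tubulins and cullins, so they are no separate result. Of 163 terms with at least 10 measured probes, the lowest median differences were those of microtubule (-0.50 over 10 probes), GTPase activity (-0.45 over 10, tubulins and elongation factors among them) and microtubule-based movement (-0.45 over 11). The term for translation elongation factor activity itself lay above 0, at 0.30 over 17. Cell cycle had the highest median of the terms (0.46 over 11, cullins among them), while the cell cycle and mitosis list had 0.05. Next were glycolysis (0.40 over 14) and porphyrin metabolism (0.40 over 15). In the last term porphobilinogen deaminase (sw05089) and uroporphyrinogen decarboxylase (sw03204), enzymes of heme synthesis, differed by 0.60 and 0.54, protoporphyrinogen oxidase (sw13398) by -0.63, and ferritin (sw03108), which stores iron, by -0.32.

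A match to SID1 transmembrane family member 1 (sw07641), named for the dsRNA channel, hardly differed in its ratio (0.11) but was bright in both channels of the BmPHO array, with 8390 in Cy5 and 4041 in Cy3, against 1896 and 726 on the BmSCM array. It was picked after its values were seen.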
